A study of Macaca mulatta with 20 samples.

Results

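The mid corpus luteum was compared with the early corpus luteum of the rhesus macaque, using the 8 arrays, of 20 in the series, whose titles name the mid luteal phase (4 arrays) or the early luteal phase (4 arrays). Early glands were collected 3 to 5 days after the surge of luteinizing hormone, and mid glands 7 to 8 days after it. All came from females with normal menstrual cyclicity, in natural cycles, and their ages are not in the labels. Each array holds total RNA of 1 whole flash-frozen gland, called a biological replicate in the labels, so every value is a mixture over all cell types of the gland. The day of the surge was inferred from daily serum estradiol, so a stage is a window of days and not a measured state of the gland. Per the series design, luteal tissue is still forming at the early stage and progesterone output is at its peak at the mid stage. The remaining 12 arrays, 4 per stage, came from mid-late glands of days 10 to 12, late glands of days 14 to 16 and very-late glands of days 18 to 19. They entered the fit and served to follow genes after the mid stage.

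The corpus luteum forms from the follicle that has just released its egg. Granulosa and theca cells of that follicle stop dividing, enlarge and become progesterone-secreting luteal cells, while the fibrin and hyaluronan matrix of ovulation is cleared and capillaries grow in from the follicle wall. Progesterone is made from cholesterol, much of it taken up from lipoproteins: STAR carries cholesterol into the mitochondrion, CYP11A1 cuts its side chain and HSD3B2 makes progesterone. Immune cells, among them macrophages, enter the gland at ovulation and again when it regresses.

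Values are log2 signals, on which 1 unit is a 2-fold step. Among the 8 arrays the array median lay at 3.89 to 3.92, the correlation of 2 early arrays across probe sets was 0.984 to 0.989, that of 2 mid arrays 0.983 to 0.991 and that of an early with a mid array 0.977 to 0.986. The median of 683 probe sets for viral genomes, 3.42, served as a background level. The tissue matched its label: STAR stood at 13.03 to 13.40 and HSD3B2 at 11.77 to 12.13 on every one of the 8 arrays. The 3 early arrays with replicate numbers 1 to 3 had high signals for 4 probe sets of the mitochondrial genome, with array means of 12.9 to 13.2. Early replicate 4 was at 6.06 and the 4 mid arrays at 6.78 to 8.50. This split touches most of the results below and is described after them.

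At the mid stage the gland had less RNA of F3, TFPI2 and PTX3, genes of clotting and matrix at ovulation, and of MELK, TRIP13, NCAPG, CDKN3 and MCM5, genes of cell division. It had more RNA of LCAT, which esterifies cholesterol, of the growth factor FGF9, of the cytokine receptor IL11RA and of PFKFB3, a regulator of glycolysis. None of the measured steroid synthesis genes passed the test. Past the test were 191 of 52707 probe sets (0.362%), 99 of them higher at mid (0.188%) and 92 lower (0.175%), with limma and an adjusted p under 0.05. Counted as 1 probe set per gene, 84 of 14132 genes passed (0.594%). Of these 35 rose (0.248%) and 49 fell (0.347%). A change of at least 2-fold was reached by 63 probe sets (0.12%) and by 26 of the 84 genes (0.184% of all genes), 8 upward and 18 downward, and the median size of the 84 changes was 0.73. In 81 of the 84 the 4 early and 4 mid arrays did not overlap, against 8.71% of all genes. The 3 exceptions were ENPP3, CDCA3 and ARHGAP18. The 84 were chosen by their difference on these same arrays, so the lack of overlap is not separate evidence for them. Without mid replicate 3 the count of probe sets was 30, without early replicate 3 it was 53 and without mid replicate 4 it was 59, and it was 25 when only the 8 arrays were fitted. Of the 84 genes, 11 passed in each of the 8 fits that left out 1 array: F3, AQP11, MELK, NTAQ1, CIB2, RPL22L1, TRIP13 and LCMT2, which fell, and LCAT, GCHFR and NKAIN1, which rose. LCMT2 was singled out after its values were seen. With a term for the mitochondrial split in the model, 4 of the 84 genes passed: NTAQ1, RPL22L1, TRIP13 and IL11RA. The others, F3, AQP11, MELK, LCAT and GCHFR among them, did not pass in that fit.

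**Figure D1:**
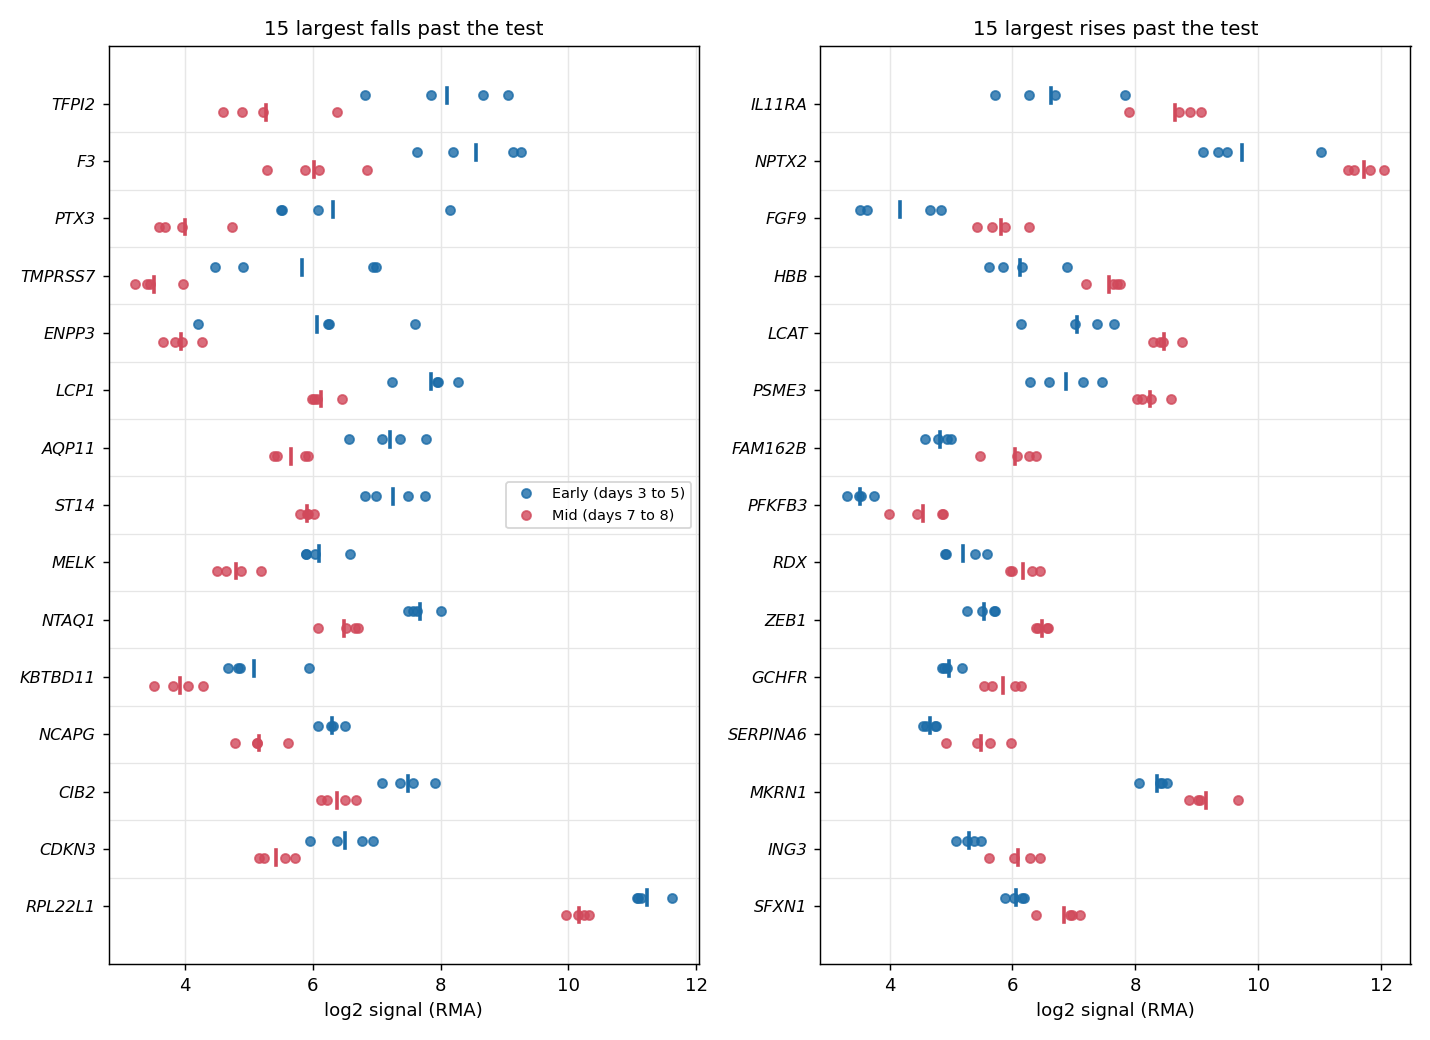
Log2 signal of each early array (blue) and each mid array (red) for the 15 genes with the largest falls and the 15 with the largest rises past the test (limma, adjusted p under 0.05); points are arrays and short vertical bars are stage means (n = 4). The early and mid points are apart in every gene except ENPP3, where the lowest early array (4.20) lies under the highest mid array (4.27).

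The largest falls were in genes of the ovulatory follicle. F3, tissue factor, the cell-surface starter of blood clotting, had signals of 7.64, 8.20, 9.26 and 9.13 in the early glands and 6.10, 5.28, 5.88 and 6.85 in the mid glands. Its highest mid gland lay under its lowest early gland. F3 fell by 2.53 on the log2 scale (SE 0.35, 5.77-fold, n = 4 per stage, limma adjusted p = 0.00582), and the difference passed in all 8 fits leaving out 1 array (adjusted p = 0.00170 to 0.0297). TFPI2, an inhibitor of serine proteases of the matrix and of clotting, had 7.85, 6.81, 9.06 and 8.66 at the early stage and 6.38, 4.89, 5.22 and 4.60 at mid. The groups were apart by less than the spread within either one. Its fall of 2.82 (SE 0.56, limma adjusted p = 0.0371) was the greatest of any of the 14132 genes, but it passed in 2 of the 8 fits leaving out 1 array (adjusted p = 0.0193 to 0.131). Of 5 probe sets for TFPI2, 1 passed and 3 pointed down. PTX3, a pentraxin that holds the hyaluronan matrix around the egg together, stood at 5.52, 6.08, 5.51 and 8.14 and then at 3.95, 3.60, 3.69 and 4.74. Early replicate 4 was far above the other early glands, and 3 mid glands were close to the background level. PTX3 fell by 2.32 (SE 0.45, limma adjusted p = 0.0354, 5 of 8 fits leaving out 1 array).

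In the whole list of ovulation and follicle matrix genes, 3 of 30 measured members fell and 0 rose, against 0.347% and 0.248% of all genes. This list and those below were drawn up with earlier results of these data known. Shares set beside all genes therefore describe a list and are not a test of it. The median difference of the list was -0.19 on the log2 scale, against -0.02 over all genes, and in 8 of the 30 every mid array was below every early array (5.63% of all genes). The other 27 did not pass. Among them LIF, a cytokine of the interleukin-6 family, was at 4.65, 5.46, 6.33 and 7.43 and at 5.52, 4.36, 4.44 and 4.36, so that mid replicate 1 reached into the early range (difference -1.30, SE 0.39, limma adjusted p = 0.171). PLAU, urokinase, the activator of plasminogen, differed by -0.94 (SE 0.22, limma adjusted p = 0.0722) with groups that did not overlap. TNFAIP6, which crosslinks hyaluronan, differed by -0.72 (SE 0.42, limma adjusted p = 0.610), and its early replicate 2 (8.04) lay below 3 of the 4 mid glands. Signals of IL1B, IL6 and CXCL8, inflammatory cytokines of ovulation, lay between 3.47 and 4.24 on all 8 arrays, close to background.

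Some genes of cell division fell, while most members of the replication and mitosis list did not pass. MELK, a kinase of dividing cells, had 5.90, 6.58, 6.04 and 5.89 at the early stage and 4.64, 5.18, 4.88 and 4.51 at mid. No mid gland reached an early one, and MELK fell by 1.30 (SE 0.17, limma adjusted p = 0.00410, all 8 fits leaving out 1 array). TRIP13, an ATPase of the spindle checkpoint, went from 6.34, 6.35, 7.02 and 6.61 to 5.60, 5.71, 5.50 and 5.43, a fall of 1.02 (SE 0.16, limma adjusted p = 0.0112). The 4 mid values of TRIP13 were close together and clear of the early ones. NCAPG, a subunit of condensin, which compacts chromosomes, fell by 1.13 (SE 0.22, limma adjusted p = 0.0354, 2 of 8 fits). CDKN3, a phosphatase acting on cyclin-dependent kinases, fell by 1.09 (SE 0.20, limma adjusted p = 0.0270, 5 of 8 fits). Further genes of this kind that fell were singled out after their values were seen: the centromere and kinetochore genes CENPW (-0.78) and CENPX (-0.69), the mitotic genes CDCA3 (-0.70) and BORA (-0.43), the DNA polymerase delta subunit POLD2 (-0.55), the ribonuclease RNASEH2A (-0.69) and the chromatin remodeller HELLS (-0.53). In that order they passed in 2, 5, 2, 5, 3, 7 and 6 of the 8 fits leaving out 1 array.

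The list of DNA replication and mitosis genes had 39 measured members, of which 2 fell, 0 rose and 37 did not pass. Of all genes 0.347% fell and 0.248% rose. The 2 were MCM5, part of the replicative helicase (-0.55, SE 0.12, limma adjusted p = 0.0474, 3 of 8 fits), and CDKN1A. CDKN1A, or p21, inhibits cyclin-dependent kinases and so acts against division. It had 9.95, 9.56, 9.73 and 9.99 at the early stage and 9.12, 8.36, 8.52 and 9.10 at mid, a fall of 1.03 (SE 0.18, limma adjusted p = 0.0247, 6 of 8 fits). The difference was negative in 34 of the 39, the median was -0.38 against -0.02 over all genes, and the groups were apart in 12, all with mid lower, against 5.63% of all genes. CCNB1, the cyclin of entry into mitosis, had 7.08, 7.68, 7.53 and 7.02 and then 5.94, 6.78, 6.62 and 6.14, clear of each other but short of the test (-0.95, SE 0.23, limma adjusted p = 0.0737). MKI67, the common marker of proliferating cells, was at 5.27, 5.39 and 4.98 in 3 mid glands and at 6.47 in mid replicate 2, inside the early range of 6.05 to 6.70 (difference -0.79, SE 0.26, limma adjusted p = 0.209). TOP2A, topoisomerase II of dividing cells, showed the same gland highest of all 8 at 8.66 (difference -0.19, SE 0.28, limma adjusted p = 0.900). TYMS, AURKA and CDT1 had adjusted p = 0.0545, 0.0543 and 0.0565 in limma, and a second probe set of TYMS passed (-1.15, adjusted p = 0.0355).

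The rest of the large falls were in genes of unrelated function. AQP11, an intracellular water channel, had 6.57, 7.09, 7.77 and 7.37 at the early stage and 5.44, 5.40, 5.92 and 5.88 at mid. It fell by 1.54 (SE 0.20, limma adjusted p = 0.00410) in all 8 fits leaving out 1 array. NTAQ1, which deamidates N-terminal glutamine on the way to protein breakdown, fell by 1.18 (SE 0.16, limma adjusted p = 0.00421), and RPL22L1, a paralog of a ribosomal protein, fell by 1.06 (SE 0.13, limma adjusted p = 0.00410). CIB2, a calcium-binding protein, fell by 1.10 (SE 0.16, limma adjusted p = 0.00983), in all 8 fits, and both of its probe sets passed. RPL22L1 was the brightest of these, at 11.62, 11.14, 11.07 and 11.08 and then at 10.24, 10.32, 10.15 and 9.96, with early replicate 1 above the other early glands. TMPRSS7, matriptase-3, a serine protease of the cell surface, had 4.48, 6.93, 4.91 and 6.99 at the early stage and 3.97, 3.23, 3.46 and 3.40 at mid, near background (-2.31, SE 0.41, limma adjusted p = 0.0270, 6 of 8 fits). Early replicates 2 and 4 were far above early replicates 1 and 3. ST14, matriptase, of the same protease family, fell by 1.35 (SE 0.27, limma adjusted p = 0.0384, 2 of 8 fits). Of 5 probe sets for ST14, 1 passed and 3 pointed down. ENPP3, an enzyme that splits extracellular nucleotides, fell by 2.14 (SE 0.42, limma adjusted p = 0.0355, 3 of 8 fits), with early replicate 3 (4.20) already at the mid level. KBTBD11, of the kelch family, fell by 1.16 (SE 0.24, limma adjusted p = 0.0459, 2 of 8 fits), with early replicate 4 (5.95) above the rest. Its adjusted p was over the threshold under cyclic loess and under median centring.

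LCP1, an actin-bundling protein of white blood cells, had 8.27, 7.24, 7.96 and 7.95 in the early glands and 6.45, 6.02, 5.99 and 6.07 in the mid glands. The mid glands were tightly grouped below the early ones, and LCP1 fell by 1.72 (SE 0.34, limma adjusted p = 0.0355, 2 of 8 fits leaving out 1 array). Its mean was 6.89 at mid-late, 8.56 at late and 11.11 at very-late, so the mid stage held its minimum. CASP4, an inflammatory caspase, fell by 0.94 (SE 0.17, limma adjusted p = 0.0281, 4 of 8 fits). It was the 1 member of 29 measured cell death genes past the test (0.594% of all genes). OSMR, the oncostatin M receptor, singled out after its values were seen, fell by 0.96 (SE 0.19, limma adjusted p = 0.0355, 3 of 8 fits).

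Markers of monocytes and macrophages had lower values in the mid glands, with 0 of the 19 measured markers past the test. Their summed signal on the log2 scale was 11.74, 11.89, 11.52 and 11.90 in the early glands and 11.32, 11.04, 11.28 and 10.92 in the mid glands, and 0 of the 19 was under background at both stages. The median difference was -0.73 against -0.02 over all genes, 15 of 19 were negative, and 5 were apart with mid lower (5.63% of all genes). At an unadjusted p under 0.05 in limma, 7 were lower and 1 was higher, against 9.36% and 5.41% of all genes. TYROBP, a signalling adaptor of myeloid cells, had 9.06, 9.06, 9.05 and 8.81 and then 7.68, 7.90, 7.85 and 7.15 (-1.35, SE 0.31, limma adjusted p = 0.0636). LYZ, lysozyme, had 8.41, 8.06, 8.27 and 7.74 and then 6.69, 5.81, 6.94 and 6.48 (-1.64, SE 0.46, limma adjusted p = 0.136). In both genes the groups were well apart. CD68 was at 7.48 to 7.64 and at 6.64 to 7.58, so its groups overlapped (-0.57, SE 0.27, limma adjusted p = 0.469). In whole glands fewer cells of a type and less RNA per cell cannot be told apart, and the part of these cells in the fall of LCP1 and CASP4 was not tested. Complement genes, several made by macrophages, had a median of -0.33 and 0 of 17 past the test, with 0 higher and 3 lower at an unadjusted p under 0.05 in limma.

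**Figure D2:**
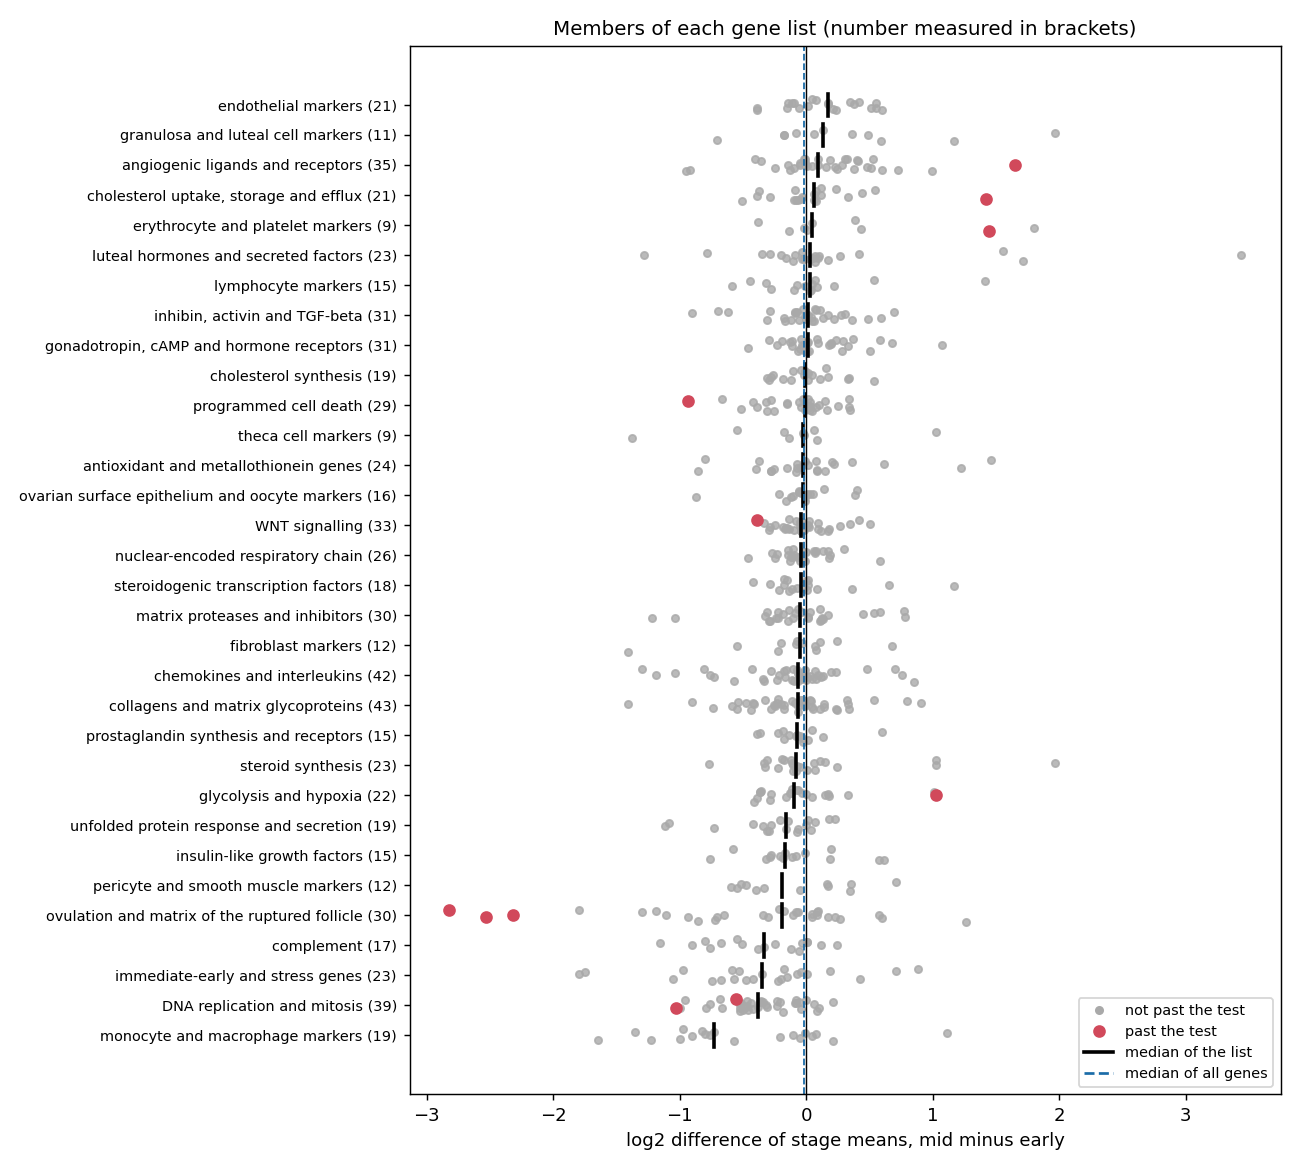
Log2 difference of stage means (mid minus early) for the measured members of each of the 32 gene lists; grey points did not pass the test, red points did (limma, adjusted p under 0.05), black bars are list medians and the dashed line is the median of all genes (-0.02). Lists are ordered by their median, from -0.73 in monocyte and macrophage markers to 0.17 in endothelial markers. Of the 688 genes measured 11 passed, against 0.594% of all genes.

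Among the rises of over 2-fold, LCAT had the smallest adjusted p. LCAT esterifies cholesterol on lipoproteins. It had 7.38, 7.66, 6.13 and 7.02 at the early stage and 8.29, 8.76, 8.41 and 8.45 at mid, a rise of 1.42 (SE 0.22, 2.68-fold, limma adjusted p = 0.0140) that passed in all 8 fits leaving out 1 array. Every mid gland was above every early one, and the mid-late mean was level with mid at 8.55. LCAT was the 1 of 21 measured genes of cholesterol uptake, storage and efflux to pass (0.248% of all genes higher), with 0 lower (0.347%). APOE, the apolipoprotein of remnant uptake and efflux, had 11.40, 11.89, 11.71 and 11.59 and then 12.31, 12.24, 12.24 and 11.97. Its groups were apart, but the difference of 0.54 (SE 0.13) had an adjusted p = 0.0786 in limma. Of 19 measured genes of cholesterol synthesis 0 passed (limma), and the median was -0.01. At an unadjusted p under 0.05, 1 was higher and 1 lower (5.41% and 9.36% of all genes). FUCA1, a lysosomal hydrolase of glycoproteins, singled out after its values were seen, rose from 12.57 to 12.80 up to 13.23 to 13.47 (0.66, SE 0.12, limma adjusted p = 0.0270, 5 of 8 fits). A second of its 4 probe sets passed as well, and 3 of the 4 pointed up.

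IL11RA, the receptor of interleukin 11, had 6.69, 7.83, 6.28 and 5.71 at the early stage and 7.90, 9.07, 8.88 and 8.71 at mid. Mid replicate 1 and early replicate 2 were nearly level, and the other glands were far apart. The rise of 2.01 (SE 0.37, 4.03-fold, limma adjusted p = 0.0272) was the largest past the test and passed in 3 of 8 fits leaving out 1 array. NPTX2, a secreted pentraxin known from synapses, was among the brightest of the genes that rose. It had 9.50, 11.02, 9.34 and 9.10 and then 11.46, 11.56, 12.04 and 11.83, a rise of 1.98 (SE 0.39, limma adjusted p = 0.0355, 2 of 8 fits). Early replicate 2 already had a level close to the mid glands. The stage mean of NPTX2 then went to 11.48, 10.14 and 5.94 at mid-late, late and very-late.

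FGF9, a secreted fibroblast growth factor, was at 4.65, 4.84, 3.52 and 3.64 in the early glands and at 5.42, 6.27, 5.87 and 5.67 in the mid glands. Early replicates 3 and 4 were close to background and replicates 1 and 2 above it. The rise was 1.65 (SE 0.32, limma adjusted p = 0.0354, 3 of 8 fits leaving out 1 array). FGF9 was the 1 of 35 measured angiogenic ligands and receptors to pass (0.248% of all genes higher), and 0 fell (0.347%). KDR, the main receptor of vascular endothelial growth factor, had 4.16, 4.02, 4.44 and 3.79 and then 4.98, 4.43, 5.05 and 5.95. Mid replicate 2 lay in the early range, and the difference of 1.00 (SE 0.25) had an adjusted p = 0.0942 in limma. PTPRB, a phosphatase of endothelial cells that acts on the TEK receptor, was singled out after its values were seen. It had 6.45, 6.67, 6.45 and 6.72 and then 7.36, 7.36, 7.45 and 7.16, a rise of 0.76 (SE 0.13, limma adjusted p = 0.0247, 6 of 8 fits), and it was 1 of the 4 genes among the 84 that also passed when only the 8 arrays were fitted. The others were FUCA1, ZEB1 and LCP1.

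Endothelial markers gave 0 of 21 past the test in limma, with 4 higher and 1 lower at an unadjusted p under 0.05 (5.41% and 9.36% of all genes). Their median was 0.17 against -0.02 over all genes, and 5 were apart with mid higher (3.09% of all genes) and 1 with mid lower (5.63%). The summed signal was 12.43 to 12.61 in the early and 12.57 to 12.92 in the mid glands. LYVE1, a hyaluronan receptor of lymphatic and sinusoidal endothelium, had 8.61, 8.55, 8.16 and 8.55 and then 8.90, 9.06, 8.99 and 9.12 (0.55, SE 0.15, limma adjusted p = 0.122). PECAM1, present on endothelium in general, differed by -0.14 (SE 0.15, limma adjusted p = 0.834) and VWF by 0.01 (SE 0.25, limma adjusted p = 0.995), both with overlapping groups. The markers therefore did not move together. HBB, the beta chain of hemoglobin, rose from 5.62, 6.16, 5.85 and 6.88 to 7.20, 7.63, 7.70 and 7.75 (1.44, SE 0.26, limma adjusted p = 0.0270, 4 of 8 fits). It was the 1 of 9 measured erythrocyte and platelet markers past the test (0.594% of all genes). The summed signal of the 9 was 8.53 to 8.84 and 8.81 to 9.23. PPBP, a platelet chemokine, was under background in all 4 early glands and in mid replicate 1, and at 5.41, 6.08 and 5.01 in the other mid glands (1.80, SE 0.41, limma adjusted p = 0.0636). The part of blood in the glands in these values was not tested.

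A rise in PFKFB3 stood out among metabolic genes. PFKFB3 makes the sugar phosphate that drives glycolysis. Its signal was near background at 3.50, 3.74, 3.31 and 3.53 in the early glands and was 3.99, 4.45, 4.88 and 4.86 in the mid glands (1.02, SE 0.17, limma adjusted p = 0.0206, 5 of 8 fits leaving out 1 array). It was the 1 of 22 measured genes of glycolysis and hypoxia to pass (0.594% of all genes). HK2, a hexokinase, which starts glycolysis, had 7.92, 7.86, 6.64 and 7.56 and then 8.78, 8.08, 8.16 and 8.99. Its groups were apart but the difference of 1.01 (SE 0.24) did not pass (limma, adjusted p = 0.0739), and the median of the list was -0.09. FH, fumarate hydratase of the citric acid cycle, singled out after its values were seen, rose by 0.59 (SE 0.10, limma adjusted p = 0.0206, 7 of 8 fits). SFXN1, a mitochondrial serine carrier, rose by 0.78 (SE 0.16, limma adjusted p = 0.0477) but passed in 1 of 8 fits leaving out 1 array. Of 26 nuclear-encoded respiratory chain genes 0 passed, with 1 higher and 2 lower at an unadjusted p under 0.05 in limma (5.41% and 9.36% of all genes).

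GCHFR, the feedback regulator of the enzyme that starts tetrahydrobiopterin synthesis, had 4.89, 5.18, 4.94 and 4.85 and then 5.53, 6.14, 6.04 and 5.67. The gap between its groups was clear, and it rose by 0.88 (SE 0.13, limma adjusted p = 0.00983) in all 8 fits. PSME3, an activator of the proteasome, rose by 1.37 (SE 0.24, limma adjusted p = 0.0235, 6 of 8 fits). Of 3 probe sets for PSME3, 1 passed and 2 pointed up. FAM162B rose by 1.22 (SE 0.21, limma adjusted p = 0.0235, 5 of 8 fits). RDX, radixin, which ties actin to the membrane, rose by 0.98 (SE 0.18, limma adjusted p = 0.0290, 4 of 8 fits). ZEB1, a zinc finger transcription factor, went from 5.26 to 5.72 up to 6.39 to 6.58, a rise of 0.94 (SE 0.18, limma adjusted p = 0.0319, 4 of 8 fits). SERPINA6, the plasma globulin that binds corticosteroids and progesterone, had 4.76, 4.59, 4.75 and 4.55 and then 4.92, 5.43, 5.98 and 5.63. Mid replicate 1 was close to the early glands, and the rise of 0.83 (SE 0.17, limma adjusted p = 0.0445) passed in 1 of 8 fits. ING3, a subunit of a histone acetyltransferase complex, rose by 0.80 (SE 0.14, limma adjusted p = 0.0235, 7 of 8 fits). MKRN1, a ubiquitin ligase, rose by 0.80 (SE 0.17, limma adjusted p = 0.0474) with 0 of 8 fits past the test when 1 array was left out (adjusted p = 0.0521 to 0.156). Of 5 probe sets for MKRN1, 1 passed and 4 pointed up.

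The enzymes of progesterone synthesis had no member past the test. Of 23 measured steroid synthesis genes 0 passed in limma, and the median was -0.08. At an unadjusted p under 0.05, 1 was higher and 1 lower (5.41% and 9.36% of all genes). STAR had 13.03, 13.13, 13.27 and 13.36 at the early stage and 13.17, 13.26, 13.40 and 13.20 at mid, among the highest signals of the array at both. The difference was 0.06 with a 95% confidence interval of -0.73 to 0.85, wide because the error pools all 5 stages, and without the very-late arrays its SE was 0.083. HSD3B2 had 11.85, 11.93, 12.09 and 12.13 and then 11.93, 11.77, 11.96 and 12.03, a difference of -0.08 with an interval of -0.86 to 0.71. The groups overlapped throughout in both genes. FDX1 and FDXR, which pass electrons to the side-chain cleavage enzyme, differed by 0.11 (SE 0.15, limma adjusted p = 0.891) and -0.11 (SE 0.33, limma adjusted p = 0.960). CYP11A1, LHCGR, SCARB1, VEGFA and PTGS2 had no probe set with their symbol alone and are not analysed here.

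The enzymes of androgen and estrogen synthesis did not pass either. CYP19A1, aromatase, which makes estradiol, had 9.28, 9.94, 9.10 and 8.60 at the early stage and 11.38, 9.95, 11.71 and 11.74 at mid. Early replicate 2 and mid replicate 2 were level, and the difference of 1.96 (SE 0.47, 3.90-fold) did not pass (limma, adjusted p = 0.0737). CYP17A1, which makes androgens in theca-derived cells, had 7.74 and 7.94 in early replicates 1 and 2 and 6.22 and 6.43 in replicates 3 and 4, and 7.70, 7.84, 8.03 and 8.87 at mid (1.03, SE 0.66, limma adjusted p = 0.660). Of the NR5A nuclear receptors that switch on steroid genes, NR5A2 went from 8.72, 9.06, 8.47 and 7.89 to 9.92, 9.52, 9.61 and 9.77, with groups that did not overlap (1.17, SE 0.43, limma adjusted p = 0.295). NR5A1 was at 6.48 to 7.25 and 6.52 to 6.80, with groups that overlapped (-0.17, SE 0.15, limma adjusted p = 0.784).

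**Figure D3:**
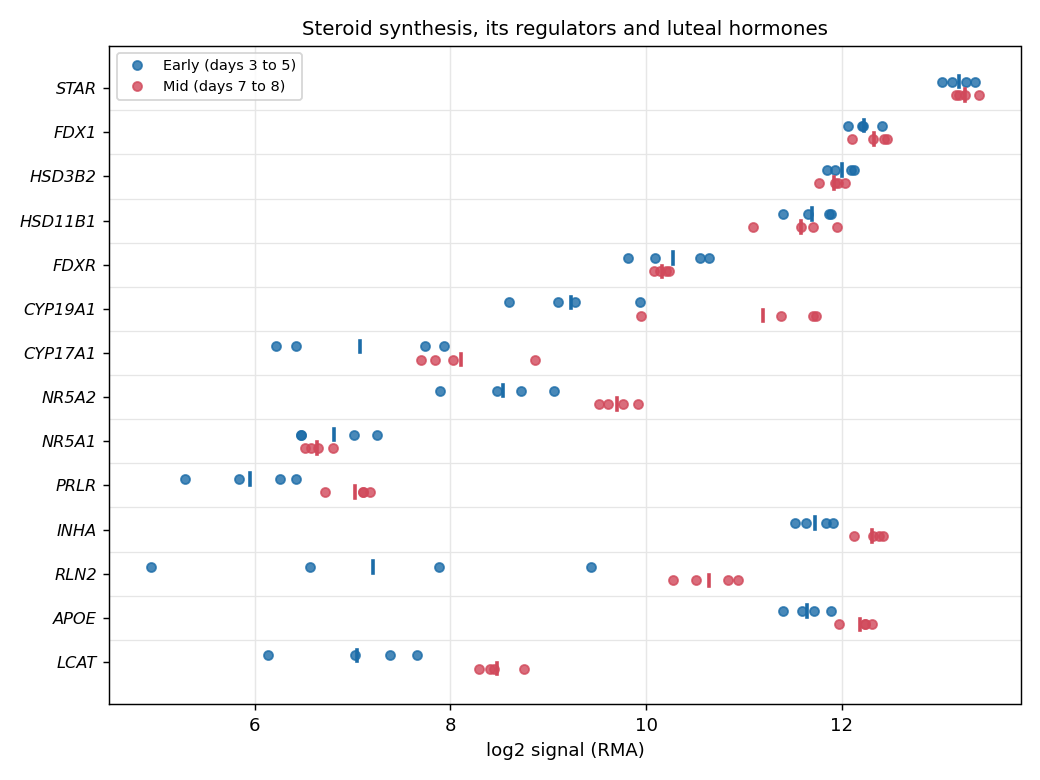
Log2 signal of each early (blue) and mid (red) array for genes of steroid synthesis, its regulators, luteal hormones and lipoprotein genes; points are arrays and bars are stage means (n = 4). STAR, FDX1 and HSD3B2 overlap between stages, while NR5A2, PRLR, INHA, RLN2, APOE and LCAT are apart, of which LCAT passed the test.

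Hormone genes showed differences that did not pass the test. RLN2, relaxin, a secreted hormone of the primate corpus luteum, had 7.88, 9.44, 4.94 and 6.57 at the early stage and 10.28, 10.94, 10.84 and 10.51 at mid. The early glands ranged over more than 4 log2 units and the mid glands over less than 1, all of them above the highest early gland. The difference of 3.44 (SE 1.20, 10.8-fold) was the largest upward of the 14132 genes, with an adjusted p = 0.259 in limma. INHA, the alpha subunit of inhibin, had 11.52, 11.83, 11.91 and 11.63 and then 12.12, 12.43, 12.32 and 12.38 (0.59, SE 0.50, limma adjusted p = 0.783). PRLR, the prolactin receptor, had 5.84, 6.26, 5.29 and 6.42 and then 7.17, 6.72, 7.11 and 7.11 (1.08, SE 0.33, limma adjusted p = 0.178). In INHA and PRLR the groups were apart. Leaving out the 4 very-late arrays changed these calls: without them the SE of INHA was 0.089, and INHA (adjusted p = 0.00947), PRLR (0.0153), RLN2 (0.0193), NR5A2 (0.0101) and APOE (0.0241) passed in limma. When only the 8 early and mid arrays were fitted they did not pass, with adjusted p = 0.0809, 0.128, 0.153, 0.0937 and 0.127 in that order. Of the 20 alternative fits, 1 called each of INHA, PRLR, RLN2 and APOE, and 2 called NR5A2. Without the very-late arrays 593 probe sets passed, and 33 of the 688 list genes against 11 with all arrays. Calls rose among all 14132 genes as well, to 117 higher and 156 lower, against 35 and 49 with all arrays.

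Besides those genes, leaving out the very-late arrays brought cell division genes CCNB1 (adjusted p = 0.0406), TYMS (0.0157), AURKA (0.0390), CDT1 (0.0430), MCM4 (0.0442) and the kinase inhibitor CDKN2C (0.0286) past the test in limma, all lower at mid. LYVE1 (0.0275), EMCN (0.0468), EFNB2 (0.0465), IGFBP7 (0.00756), ITGA1 (0.0248) and UQCRB (0.0139) passed as higher. TYROBP (0.0494), PLAU (0.0421), IL10RA (0.0171), KLRD1 (0.0166) and ATP5MC1 (0.0494) passed as lower. When only the 8 early and mid arrays were fitted, TYROBP passed narrowly (limma, adjusted p = 0.0493). None of the other genes of this paragraph did, with adjusted p = 0.0644 to 0.194 in limma.

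Immediate-early and stress genes had 0 of 23 past the test in limma, with 1 higher and 8 lower at an unadjusted p under 0.05 (9.36% of all genes lower, 5.41% higher) and a median of -0.35. In 4 of them every mid array was below every early one (5.63% of all genes). FOS, a transcription factor subunit induced within minutes of stimulation, had 7.99, 6.85, 7.36 and 7.18 and then 6.24, 4.68, 5.80 and 5.49 (-1.79, SE 0.77, limma adjusted p = 0.400). EGR2, of the same response, had 5.54, 5.72, 6.56 and 5.49 and then 4.77, 3.48, 4.50 and 3.54 (-1.75, SE 0.52, limma adjusted p = 0.167). Mid replicate 1 was the highest mid gland for both, and for JUNB and LIF. TCF7, a transcription factor of WNT signalling, fell by 0.39 (SE 0.08, limma adjusted p = 0.0354, 2 of 8 fits) at signals of 3.51 to 4.11, not far above background. Of 3 probe sets for TCF7, 1 passed and 2 pointed down. TCF7 was the 1 of 33 WNT genes past the test (0.594% of all genes). Collagens and matrix glycoproteins (43 measured), matrix proteases (30), chemokines and interleukins (42), pericyte (12), fibroblast (12), theca (9) and lymphocyte (15) markers had 0 list members past the test, with 7, 4, 4, 2, 1, 2 and 3 members lower and 3, 1, 1, 1, 1, 0 and 1 higher at an unadjusted p under 0.05 in limma. COL5A3, a chain of type V collagen outside these lists, singled out after its values were seen, fell by 0.66 (SE 0.13, limma adjusted p = 0.0369, 1 of 8 fits).

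From mid to mid-late 6 probe sets passed (0.0114%), and in 4 (0.00759%) the step from early to mid differed from the step from mid to mid-late. Of the 49 genes that fell, 31 had a mid-late mean below the mid mean. Of the 35 that rose, 16 had a mid-late mean above mid. The same mid arrays enter both steps, so a stray deviation of a mid mean moves the steps in opposite directions. These counts therefore cannot show how far the changes went on after mid. NKAIN1, a membrane protein that binds the sodium pump, was the 1 of the 84 whose change from mid to mid-late passed the test. It had 3.62, 3.74, 3.49 and 3.54 at the early stage, 4.16, 4.27, 4.26 and 4.02 at mid and a mean of 3.62 at mid-late. Every mid gland stood above the early range, as did mid-late replicate 1 (3.80), all at signals less than 1 unit over background. NKAIN1 rose by 0.58 (SE 0.08, limma adjusted p = 0.00410) and then fell by 0.55 (SE 0.08, limma adjusted p = 0.0156). The steps differed by 1.13 (SE 0.13, limma adjusted p = 0.00222). With a term for the mitochondrial split in the model, its rise did not pass. Mid-late replicate 1 had a low mitochondrial signal (7.30), like all mid arrays, and mid-late replicates 2 to 4 a high one (13.5 to 13.6).

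HIPK2, a nuclear kinase, passed both steps on 1 of its probe sets. It was chosen after its values were seen. On that 1 of its 7 probe sets it rose by 1.18 (SE 0.23, limma adjusted p = 0.0354) and then fell by 1.54 (adjusted p = 0.0317), and the steps differed by 2.72 (SE 0.40; adjusted p = 0.0322). On the brightest one it differed by 0.44 from early to mid (SE 0.16, limma adjusted p = 0.294) and fell by 1.04 from mid to mid-late (SE 0.16; adjusted p = 0.0460). All 7 probe sets pointed upward from early to mid. Both steps compare stages that differ in the mitochondrial split too. On the probe set that passed both steps the mid glands were at 9.30 to 9.91. With a low mitochondrial signal, early replicate 4 was at 8.85 and mid-late replicate 1 at 8.32. The early glands with a high signal were at 7.86 to 8.84 and the mid-late ones at 7.98 to 8.08.

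**Figure D4:**
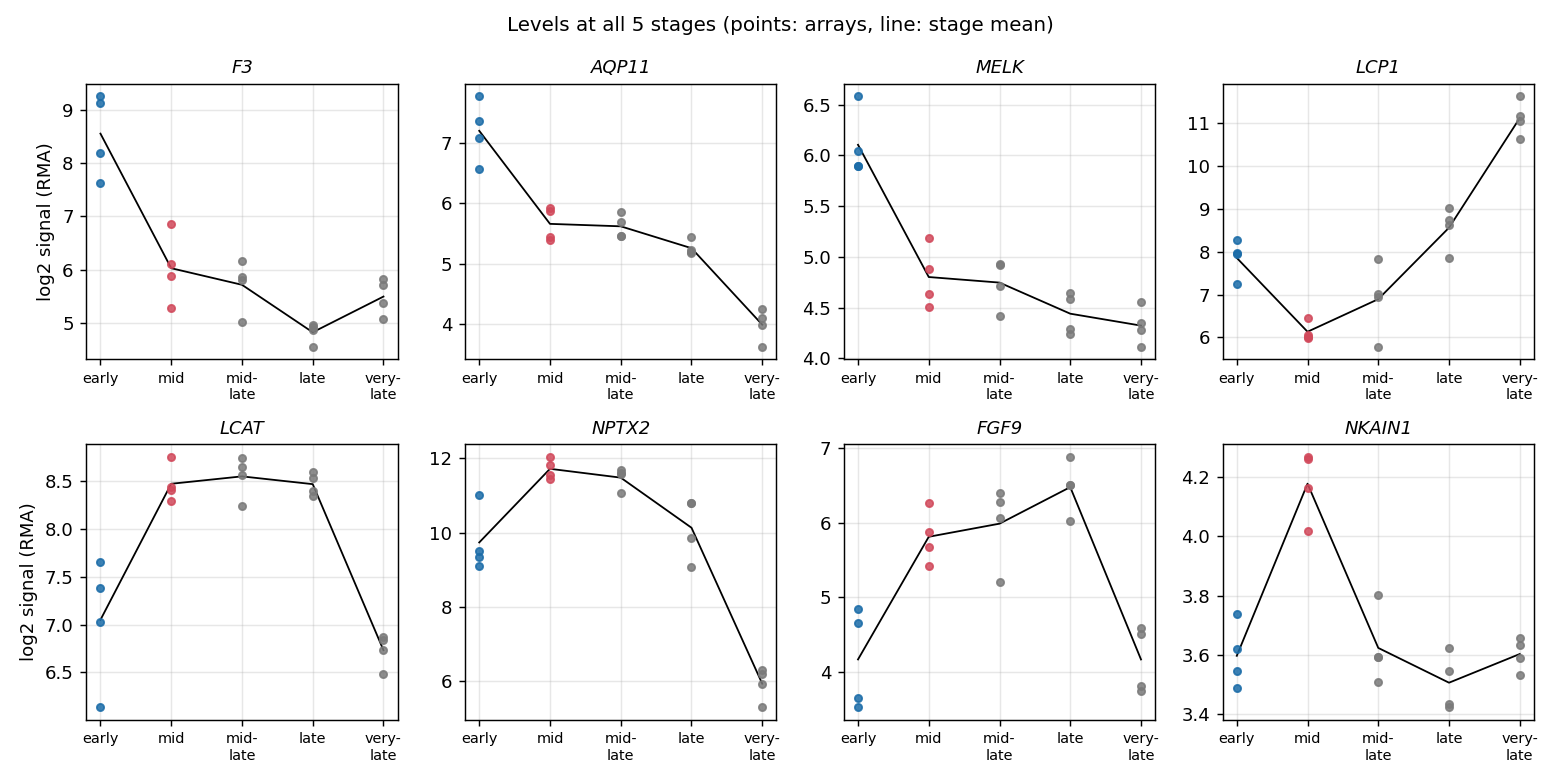
Log2 signal of 8 genes at all 5 stages, each panel on its own axis; points are arrays (early blue, mid red, other stages grey; n = 4 each) and the line joins stage means. F3, AQP11 and MELK stay low after mid, LCP1 climbs from 6.89 at mid-late to 11.11 at very-late, LCAT, NPTX2 and FGF9 drop at the very-late stage, and NKAIN1 has its highest mean at mid.

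The mitochondrial split lay along the comparison. Early replicates 1 to 3 were in the high group and early replicate 4 and all mid glands in the low group, so the split and the stage are almost confounded in these 8 arrays. The same holds from mid to mid-late, where mid-late replicate 1 was in the low group and mid-late replicates 2 to 4 in the high group. A fit comparing the 4 mid arrays with early replicate 4, added after seeing the data, called 225 probe sets (52 higher and 173 lower), 16 of the 84 genes among them. Its early arm is 1 gland, assumed to vary like the other groups, so it compares that gland and not the early stage. With a term for the split in the model 19 probe sets passed, and 4 of the 84 genes: NTAQ1, RPL22L1, TRIP13 and IL11RA. What made the split was not tested.

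**Figure D5:**
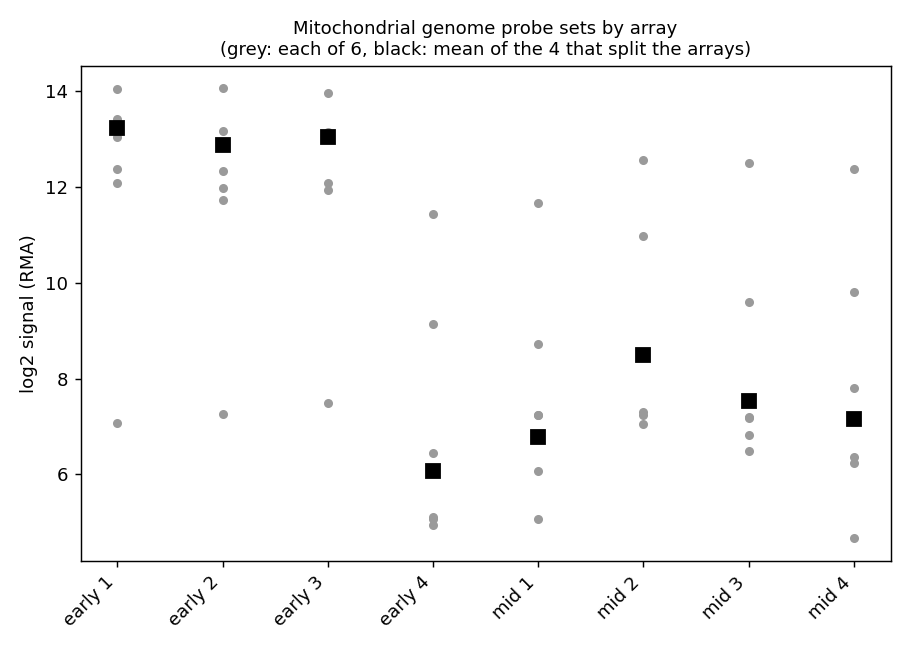
Log2 signal of the 6 mitochondrial genome probe sets on each of the 8 arrays (grey) with the mean of the 4 that split the arrays (black squares); early replicates 1 to 3 lie at 12.9 to 13.2 and the other 5 arrays at 6.06 to 8.50.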

How the data were processed

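Total RNA of 20 corpora lutea was labelled with biotin in 1 cycle and hybridised to Affymetrix rhesus arrays, per the labels' protocols. The authors deposited log2 values made with RMA, per the submitters' processing notes. Its version, the definition of the chip and any filtering are not given in the sources used here. The log2 values, 2.48 to 14.28, were used as they stand.

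The table has 52865 probe sets. Without 158 controls, 52707 remained for testing. Per the platform annotation 24956 had 1 gene symbol, 361 several and 27390 none, and 218 gene identifiers matched no entry of the current gene table. Each gene takes the values of its brightest probe set on average (14132 genes, 6375 with more than 1 probe set). Of the 191 probe sets past the test, 129 had 1 gene, covering 124 genes, 40 of them called on a probe set other than the representative. Probe sequences were not used, so signal shared with related genes, such as HBB with other beta-like globins, was not tested.

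Stages were taken from the titles. In R 4.3.3, limma 3.58.1 fitted the means of 5 stages to 20 arrays (15 residual and 2.75 prior degrees of freedom). Tests were two-sided, with Benjamini-Hochberg adjustment over 52707 probe sets and an adjusted p under 0.05 as the threshold. For arrays, their number limits the precision, and p-values measure the spread between these glands. On simulated data for this comparison (52707 probe sets), 66% of true 1.5-fold, 96% of 2-fold, 94% of 4-fold and 100% of 8-fold changes were called, with 7 false calls. The simulated noise was normal, independent between arrays and of 1 pooled spread per probe set, and changes were set in probe sets above background. Array effects, the mitochondrial split and spreads that differ between stages were not simulated. These shares therefore check the fit and do not give its power or false calls on the real arrays.

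Genes named are the 15 largest rises and falls past the test, the 10 smallest adjusted p, members of 32 gene lists (938 genes, 688 measured) and 21 fixed genes, of which 14 were measured. The comparison, lists and rule were chosen with earlier results of these data known. Same-numbered early and mid arrays deviated together by r = -0.106, 0.0946, 0.0407 and 0.0867, and differently numbered ones by -0.229 to 0.190. These correlations cannot show whether same-numbered arrays are pairs. The titles give only a replicate number, so the arrays were not fitted as pairs.

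Alternatives were a filter on dim probe sets, cyclic loess, median centring, array weights, a robust prior with a trend, the 8 arrays alone, a block for the replicate number, 1 probe set or the mean of probe sets per gene, no very-late arrays, a term for the mitochondrial split, stricter thresholds and leaving out each early and mid array in turn.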

Additional observations from a re-analysis of the deposited data

Results flagged for a closer look

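Among 252 sets of 4 arrays (126 genes at 2 stages), 14 had 1 array set apart from the other 3 by a gap too wide for the range of the 4 (Dixon, 95% level), where chance gives about 1 in 20. High arrays were mid replicate 1 in LCP1 (6.45) and LIF (5.52), mid replicate 2 in RNASEH2A (6.68) and in the endothelial marker PECAM1 (9.77), early replicate 1 in RPL22L1 (11.62), early replicate 2 in the cyclin CCNA2 (5.31) and early replicate 4 in KBTBD11 (5.95) and the monocyte marker CD14 (8.78). Low arrays were mid replicate 2 in PRLR (6.72), early replicate 2 in TNFAIP6 (8.04) and in FLT1, a receptor of vascular endothelial growth factor (3.67), early replicate 3 in AIF1, a macrophage marker (5.09), and in LYVE1 (8.16), and early replicate 4 in TYROBP (8.81). In LCP1, RNASEH2A, LYVE1, TYROBP, AIF1, CD14, RPL22L1, KBTBD11, PRLR, FLT1 and CCNA2 the early and mid groups stayed apart with that array included.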

How the results depend on the processing

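All 84 genes past the test kept their direction under all 20 alternative fits, but not their call. Of the 84, 84 also passed without dim probe sets, 79 under cyclic loess, 74 under median centring, 61 with a trended and robust prior and 69 with probe sets averaged per gene. The 191 probe sets became 534 with array weights, 593 without the very-late arrays, 25 with the 8 arrays of the 2 stages alone and 19 with a term for the mitochondrial split. At least 2-fold were 63, and at an adjusted p under 0.01 there were 16. With the replicate number as a block 81 passed (35 higher and 46 lower), 33 of the 84 genes among them. Leaving out 1 array gave 30 to 249 probe sets, fewest without mid replicate 3 (13 of the 84 genes), mid replicate 4 (24) and early replicate 3 (23). For mid-late against mid the 6 probe sets became 26 with array weights, 2 with 1 probe set per gene, 2 with the mean of probe sets and 1 with the mitochondrial term, and 2 to 12 when 1 array was left out (12 without early replicate 4 and 2 without mid replicate 3). For the difference between the steps the 4 became 2 under cyclic loess, 1 with 1 probe set per gene and 1 with the mitochondrial term, and 2 to 12 when 1 array was left out (7 lacking early replicate 4, 12 lacking mid replicate 1 and 2 lacking mid replicate 2). Steps past mid could not be fitted on the 8 arrays. The cause of these shifts was not tested. Across the 126 genes tabulated, 399 of the checks of single genes, under the alternative fits and the 2 stricter thresholds, lost the call and 71 gained it. List medians kept their sign under cyclic loess and median centring except 3 within 0.03 of 0 (cholesterol synthesis, cell death and antioxidant genes under cyclic loess). Signals near background, as in TCF7, PFKFB3, NKAIN1 and FGF9, compress fold changes.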

Other observations

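Some list members not described above had large differences without passing on their brightest probe set, and are given here for their size. DEFB119, a beta-defensin of the reproductive tract, differed by -1.28 (limma, adjusted p = 0.0853) on its brighter probe set and fell by 2.26 on the other (adjusted p = 0.0354). Among the plasma serpins, SERPINA5 differed by 1.71 and SERPINA4 by 1.56. DLK1, a marker of theca cells and of the follicle wall, differed by -1.37 and LUM, a collagen-binding proteoglycan, by -1.40. In the response to amino acid shortage, ASNS, an asparagine synthetase, differed by -1.12, TRIB3 by -1.09 and CHAC1 by -0.73, while the glutamine carrier SLC1A5, singled out after its values were seen, fell by 0.92 (SE 0.17, limma adjusted p = 0.0296, 6 of 8 fits leaving out 1 array).

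Some genes passed on a probe set other than their brightest one, and were chosen here after their values were seen. ANLN, a scaffold of the cleavage furrow, fell by 1.06 (limma, adjusted p = 0.00983) on 1 of 4 probe sets, and MAD2L1, of the spindle checkpoint, fell by 0.70 (adjusted p = 0.0311) on 1 of 2. FAM3B, a secreted cytokine-like protein, rose by 0.85 (limma, adjusted p = 0.00983) on 1 of 5 probe sets. NONO fell by 0.93 (limma, adjusted p = 0.00410) on 1 of 2 probe sets and differed by -0.03 (adjusted p = 0.989) on the other.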
